A study of Mus musculus with 6 samples.

Results

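Adventitial fibroblasts were described here in dissociated mouse lung as 1211 cell barcodes out of 88616 that passed the quality limits, 1.37% of the total. A barcode was taken as a member when it had at least 500 genes, at least 1000 unique molecular identifiers (UMIs, each standing for 1 captured RNA molecule) and at most 15% mitochondrial UMIs. It also needed at least 5 UMIs of Dcn, at least 2 of Serpinf1 and at least 2 of Pi16 and Ccl11 together, with 0 UMIs of Npnt, Cdh5 and Ptprc. These genes chose the members, so their levels are given as a description, and nothing is read from a test of them. The p16-DTR-labelled libraries held 172, 149 and 111 members and the control libraries 404, 155 and 220.

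All 6 libraries came from lungs of male C57BL/6 mice aged 21 months, 1 lung a library. The control mice carried p16-CreERT2, in which the promoter of the senescence gene p16 drives a tamoxifen-activated Cre recombinase. The p16-DTR mice carried p16-CreERT2 together with R26-LSL-DTR, so that Cre removes a stop cassette and opens a diphtheria toxin receptor at the Rosa26 locus. Tamoxifen and diphtheria toxin were given to every mouse of both groups: tamoxifen for 5 days, then after an interval of 2 weeks the toxin for 5 days, with lungs taken after 2 weeks of recovery. Both groups therefore shared the Cre allele, the drug and the toxin, and differed in the receptor allele. After Liberase digestion, 20000 cells without and 9000 cells with the leukocyte antigen CD45 were mixed for each library (10x Genomics GEM-X 3' chemistry), so the number of members in a library depends on the sort as well as on the lung. With 3 mice a group, the smallest p an exact permutation test can give is 0.1.

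Adventitial fibroblasts lie in the connective tissue cuffs around the larger vessels and airways of the lung, where they secrete collagen, decorin and other matrix and release chemokines and cytokines that act on immune cells. In many organs the Pi16-positive fibroblast of the adventitia is described as a reservoir that can give rise to more specialised fibroblasts. Pi16 encodes a secreted peptidase inhibitor, Ccl11 the eosinophil chemokine eotaxin, Serpinf1 pigment epithelium-derived factor, and Dcn the proteoglycan decorin. Clec3b, a marker the rule did not use, encodes tetranectin.

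The 6 libraries held 13482 to 17332 barcodes, of which 12667 to 16426 passed. Members were deeply sampled, with a median of 28578.5 to 33918 UMIs a cell by library and 3604054 to 12071039 UMIs in a library's sum over members. Pairs of libraries shared 59 to 94 barcode sequences, and no shared sequence was a member in both. Cdkn2a, the gene that encodes p16, checks the labels of a design meant to remove cells with an active p16 promoter. In the sum over all passing barcodes it stood at 7.10, 8.57 and 7.31 CPM (UMIs per 1000000 UMIs) in the p16-DTR-labelled libraries and at 1.15, 2.60 and 2.84 CPM in the controls, so it was higher where removal was the aim. The receptor allele itself has no entry among the counted features, so the labels could not be checked against it, and every direction below follows the labels. One control library also stood apart in its members: of 99 members with a UMI of the transcription factor Wt1, 76 were in control replicate 1, and results that rest on them are given with and without them.

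The label held against its markers. Clec3b stood at 1379.8 to 1698 CPM in the members (median 1474), against means of 141 CPM in alveolar, 260 CPM in intermediate and 69.9 CPM in peribronchial fibroblasts, and 98.8% of members had a Clec3b UMI. The comparison classes were set by their own gates. Alveolar fibroblasts (14541 barcodes) needed Npnt, Inmt and Col1a2, intermediate fibroblasts (356) needed Dcn, Cxcl14 and Mmp3, and peribronchial fibroblasts (915) needed Hhip and Aspn. All 3 classes required 0 UMIs of Pi16 and Ccl11, and none shared a barcode with the members. Only the alveolar gate also required 0 UMIs of the epithelial gene Epcam. The 7 epithelial markers summed to 2994 CPM in the peribronchial class, against 127 CPM in the alveolar and 116 CPM in the intermediate class. In members they summed to 92.1 to 140 CPM by library. The peribronchial class thus held epithelial RNA, whose part in the comparisons below was not tested. The 9 alveolar markers that the members' rule did not use had a lower mean in members than in alveolar fibroblasts, to unequal degrees. Scube2 stood at 1.29 to 3.88 CPM against a mean of 472 in alveolar fibroblasts, Fgfr4 at 0.58 to 1.00 CPM against 162, and Wnt2 at 1.57 to 4.16 CPM against 162. Tcf21, a transcription factor, stood at 138 to 153 CPM against 477 in the alveolar, 168 in the intermediate and 72.6 in the peribronchial class. With Npnt, the 10 markers summed to 2718 to 4415 CPM in members, against 18324 CPM in alveolar and 3132 CPM in peribronchial fibroblasts. Inmt and Mfap4 were lower in members than in the alveolar class without being near 0, at means of 2297 and 461 CPM against 5014 and 1891.

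At the edge of the rule the marker level changed gradually. The 39 members with exactly 2 UMIs of Pi16 and Ccl11 together had a summed Clec3b level of 812 CPM. The 34 barcodes just outside, with 1 such UMI, had 622 CPM, and the 98 barcodes with 0 had 384 CPM. On the Serpinf1 limit, 36 members with exactly 2 UMIs stood at 1209 CPM and 28 barcodes with 1 UMI at 978 CPM. A single UMI of Npnt, the nephronectin gene that marks alveolar fibroblasts, removed 363 barcodes that met the rest of the rule. Those barcodes had 1262 CPM of Clec3b against 1493 CPM over all members, so the rule leaves out cells with a similar Clec3b level.

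Markers of other fibroblasts were present in members. The 2 intermediate fibroblast markers summed to 726 to 1040 CPM by library against 1497 CPM in the intermediate class, and the 7 peribronchial markers to 304 to 576 CPM against 11870.5 CPM in the peribronchial class. The 6 mesothelial markers, Wt1 among them, summed to 139 CPM in control replicate 1 and to 1.49 to 41.9 CPM in the other 5 libraries. Control replicate 1 had most Wt1-positive members, and Wt1 itself made up most of its sum. In those members Wt1 had 1642 UMIs, Upk3b 5, Upk1b 2, and Msln, Lrrn4 and Krt19 0. The summed level of 7 endothelial markers was 139 to 147 CPM in the p16-DTR-labelled libraries and 132 to 146 CPM in the controls, and that of 9 leukocyte markers 62.2 to 102 and 66.4 to 70.7 CPM. Cdh5 and Ptprc are at 0 by the rule. The summed level of 6 smooth muscle markers was 38.8 to 86.4 CPM over the 6 libraries, against 2583 CPM in the peribronchial class. The 4 erythrocyte and platelet markers summed to 40.3 CPM in p16-DTR replicate 1 and to 0.852 to 7.01 CPM in the other 5 libraries; of 123 Ppbp UMIs in that replicate, 74 were in 1 member. At least 1 UMI of Epcam, Pecam1, Msln, Hhip or Myh11 was found in 516 members (42.6%), mostly Hhip (283) or Pecam1 (260). Their part in the results was not tested beyond leaving these members out.

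The 12 genes with the highest ratio in members against the highest of the 3 comparison classes held 3 genes of the rule and the 9 described here. Each ratio is the median over 6 libraries of the members' log2(CPM + 0.5) minus that of the highest class. Since the cells were chosen on these data, the ratio is a description. Class means were at most 1.07 CPM for Ebf2, 0.0897 CPM for Sult1e1 and 1.32 CPM for Gria4. The size of these 3 ratios therefore depends on the added 0.5 CPM. Ebf2, an early B-cell factor family member also known from adipocyte precursors, stood at 194 to 512 CPM in members with a median log2 ratio of 7.78. Ebf1, of the same family, stood at 884 to 1474 CPM with a log2 ratio of 5.76. Every library held both genes well above every comparison class. Scara5, a ferritin receptor, had 519 to 598 CPM and a log2 ratio of 6.21. Cd248 (endosialin) had 128 to 200 CPM and 5.74, and Ly6c1 had 246 to 333 CPM and 5.06. Gpc6, a glypican that carries heparan sulfate on the cell surface, had 1269 to 1536 CPM and a log2 ratio of 4.55. These 4 varied little between libraries relative to their distance from the other fibroblasts. Sult1e1, the estrogen sulfotransferase, varied most, from 22.2 CPM in p16-DTR replicate 1 to 332 CPM in control replicate 1, with a log2 ratio of 7.72. Gria4, a glutamate receptor subunit, had a UMI in only 17.3% of members and a log2 ratio of 5.89. The remaining genes of the leading 12 were Ifi204 (4.58) and the rule genes Pi16, Ccl11 and Serpinf1.

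**Figure D1:**
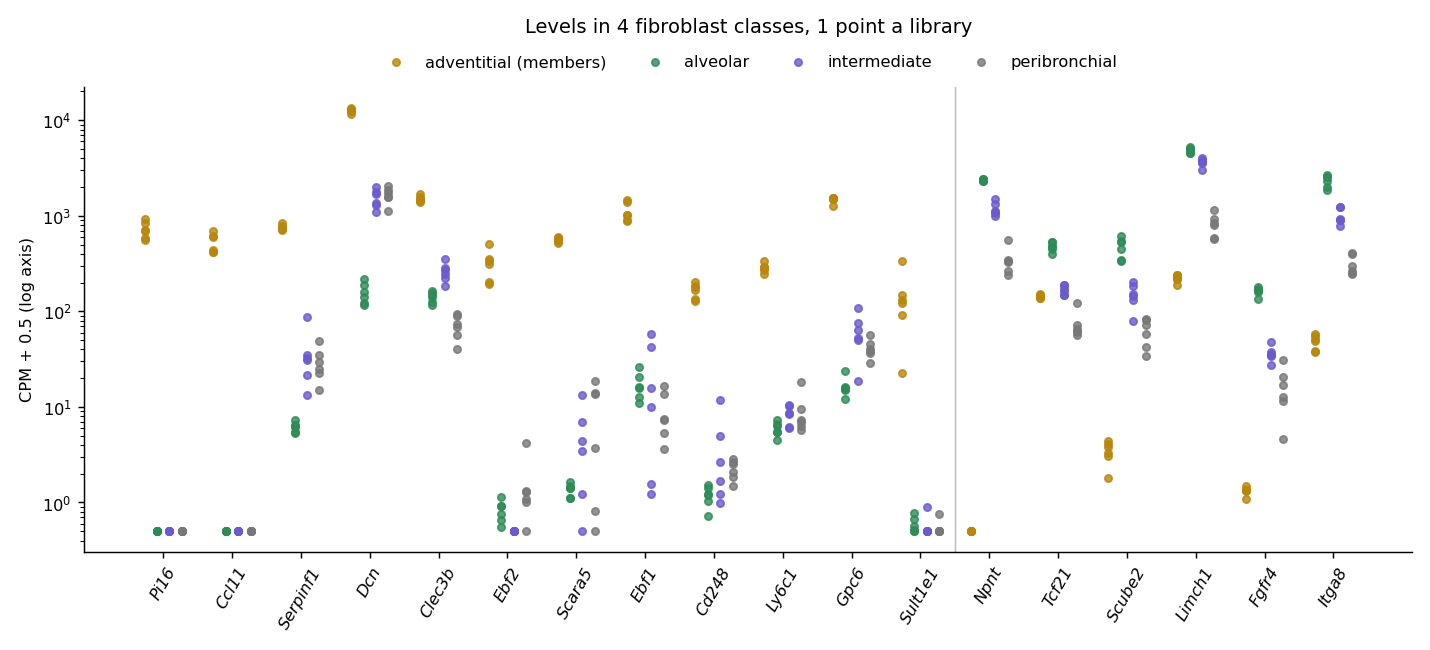
Level of 18 genes (x axis) as CPM + 0.5 on a log axis (y axis) in the members and in 3 comparison classes, 1 point for each of 6 libraries; genes right of the grey line are alveolar markers. Scara5 lies between 519 and 598 CPM in members against class means of 0.870 to 7.99 CPM, while Fgfr4 lies at or below 1.00 CPM in members against a mean of 162 CPM in alveolar fibroblasts. Pi16 and Ccl11 are at 0 in the comparison classes, and Npnt at 0 in members, by the gates.

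Over 4816 genes with at least 50 CPM in the members or a comparison class, 613 (12.7%) were higher in members than in all 3 classes in 6 of 6 libraries, and 914 (19.0%) were lower than all 3. Genes named in this paragraph and the next were picked after their values were seen. Of 28 genes in a list of adventitial fibroblast identity, genes of the rule left out, 23 were higher. They included Entpd2, an ectonucleotidase, at a mean of 263 CPM against 2.74, 14.5 and 4.33 CPM in the alveolar, intermediate and peribronchial classes, and Ackr3, a scavenging receptor for CXCL12, at 190 CPM against 1.48, 5.86 and 14.3 CPM. Identity genes not among the 23 included Pdgfra, at 498 CPM against 1437 CPM in the alveolar class. Sema3c and Lum, also not among them, stood at 172 and 469 CPM against 286 and 588 CPM in the peribronchial class. None of the 28 was lower than all 3 classes in every library. The list was chosen with earlier results of these data known. Among 20 collagens, 7 were higher and 3 lower. Col14a1, a fibril-associated collagen, stood at 1019 CPM against 364 CPM in the next class. Col15a1, found at basement membranes, stood at 203 CPM against 51.2 CPM. The fibrillar Col1a1, Col1a2 and Col3a1 were 0.50 to 0.76 higher on the log2 scale than in the next class. Of 18 elastic fibre and microfibril genes, 5 were higher and 0 lower, led by Emilin2 (82.0 against at most 3.06 CPM) and Fbln2 (373 against at most 46.9 CPM). Cilp and Has1, for a cartilage intermediate layer protein and a hyaluronan synthase, stood at 124 and 349 CPM against at most 29.1 and 117 CPM.

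The secreted signals and the complement genes gave a similar picture. Of 19 genes for chemokines, cytokines and their receptors, 10 were higher in members in 6 of 6 libraries. Il33, an alarmin read by type 2 immune cells, stood at 228 CPM against at most 32.8 CPM in the comparison classes. Il6 stood at 446 against 207 CPM, and Cxcl12, the ligand of CXCR4, at 429 against 190 CPM. Of 12 complement genes, 7 were higher and 2 lower. C3, the central component, stood at 3934 CPM against 1377 CPM in intermediate and 615 CPM in alveolar fibroblasts. Cd55, which speeds the decay of complement convertases, stood at 181 against 47.6 CPM. Among 34 growth factor genes, 9 were higher (26.5%) and 7 lower (20.6%, near the 19.0% of all genes). The lower ones included Fgf2, Fgf7 and Fgfr2. In the Wnt and insulin-like growth factor list of 24 genes, 6 were higher (25%) and 4 lower (16.7%), against 12.7% and 19.0% of all genes. Igfbp4 stood at 1874 against 462 CPM, and Wnt2 and Axin2 were among the 4. Of 19 genes for lipid and retinoid handling, 5 were higher and 3 lower. The higher ones included Aldh1a3, which makes retinoic acid, at 50.5 CPM against at most 0.569 CPM, and Cyp1b1 at 106 against at most 4.41 CPM. Aldh1a1, another enzyme that makes retinoic acid, was among the 3 lower, at 253 CPM against 2156, 1276 and 433 CPM. None of 11 clock genes was higher and 5 were lower, including Rora, Clock and Per1.

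Within the members, Pi16 and Ccl11 divided the cells unevenly. Both genes had at least 2 UMIs in 710 members (58.6%), Pi16 alone in 251 (20.7%) and Ccl11 alone in 152 (12.6%). Pi16 led in 646 members and Ccl11 in 547, and 18 had equal counts. By library, the Pi16-leading share of members with unequal counts was 44.7%, 59.1% and 54.1% in the p16-DTR-labelled libraries and 55.9%, 46.4% and 60.4% in the controls. The groups overlapped, at 52.6% ± 7.29 (SD, n = 3) against 54.2% ± 7.16. This share is built from genes of the rule, so it is a description. Its permutation test enters the adjustment over 4 shares given below, and nothing is read from it.

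Cells on either side of that division differed in many other genes in all 6 libraries. The division was cut from genes of the rule, so these differences are a description. Of 3717 genes with a mean of at least 50 CPM in members, 1045 (28.1%) had the same direction in 6 of 6 libraries, 653 (17.6%) toward Pi16-leading and 392 (10.5%) toward Ccl11-leading members. Aqp1, a water channel, stood at a mean of 118 CPM in Pi16-leading members (93.3 to 144) and at 5.03 CPM in Ccl11-leading members (3.04 to 9.29), a median log2 ratio of 4.71. Adh7, an alcohol and retinol dehydrogenase, stood at 124 against 21.0 CPM (log2 ratio 2.65). The ranges over libraries did not overlap for either gene. Igfbp5, a binding protein of insulin-like growth factors, stood at 821 against 210 CPM (2.20), Aspn (asporin) at 204 against 52.8 CPM (1.96) and Anxa3, an annexin, at 211 against 56.1 CPM (1.97). Cd55 and Ackr3, both named above for their distance from other fibroblasts, had log2 ratios of 1.96 and 1.95 and so were carried mainly by the Pi16-leading cells. Col8a1 (3.13) and Nav3 (2.56) had the same direction in every library but ratios as low as 1.43 and 0.68.

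The 8 genes described on the Ccl11-leading side included the chemokine genes Cxcl12 and Ccl2. Cxcl12 stood at a mean of 638 CPM in Ccl11-leading members (539 to 792) and at 254 CPM in Pi16-leading members (199 to 304), a median log2 ratio of -1.39 as Pi16-leading over Ccl11-leading. Ccl2, a monocyte chemokine, stood at 96.8 against 23.3 CPM (-2.31), with library ratios from -5.01 to -0.51. Mdk, the heparin-binding growth factor midkine, stood at 135 against 43.8 CPM (-1.70). Chrm3, a muscarinic acetylcholine receptor, stood at 151 against 25.8 CPM (-2.45). Apoe stood at 3815 against 1503 CPM (-1.26), and Steap4, a metalloreductase, at 160 against 64.4 CPM (-1.25). Nav2 (-1.48) and Ctsc, a lysosomal protease (-1.26), were the others named on this side.

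**Figure D2:**
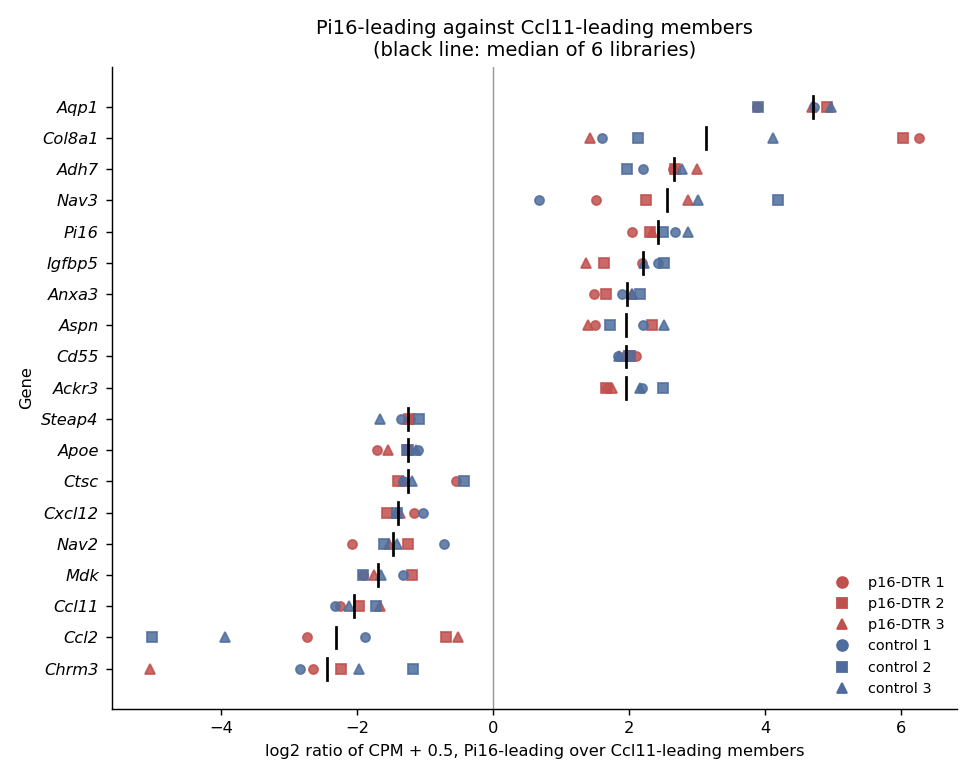
Log2 ratio of CPM + 0.5 (x axis) between Pi16-leading and Ccl11-leading members for 19 genes (y axis), with 1 symbol per library and the median as a black line; Pi16 and Ccl11 define the split. Aqp1 lies between 3.88 and 4.96 in the 6 libraries, and Cxcl12 between -1.55 and -1.03.

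Several gene lists divided along the same line, and genes of the rule are left out of these counts. Over all 3717 genes, 17.6% were toward Pi16-leading and 10.5% toward Ccl11-leading members in 6 of 6 libraries. Other lists ran both ways. Growth factor signalling had 9 of 31 genes in each direction, and lipid and retinoid handling 4 of 17. Proteases and inhibitors had 9 of 27 toward Pi16 and 6 toward Ccl11. Wnt and insulin-like growth factor genes had 3 and 5 of 19. Of 28 identity genes with at least 50 CPM, 20 were higher in Pi16-leading members in 6 of 6 libraries and 1 in Ccl11-leading members. Sema3c, a secreted semaphorin picked here after its values were seen, stood at 257 against 70.3 CPM (log2 ratio 1.89). Cd248 had 1.02, Fbn1 (fibrillin-1) 0.84 and Cd34, also picked after its values were seen, 0.76, whereas Scara5 had -0.38. Matrix lists had more genes toward Pi16: 7 of 16 collagens against 0, 7 of 18 elastic fibre genes against 0, and 16 of 29 proteoglycans and glycoproteins against 3. The immune lists ran the other way, with 7 of 9 complement genes, 8 of 12 genes of NF-kB feedback, 9 of 19 chemokine, cytokine and receptor genes and 9 of 17 interferon and MHC genes higher in Ccl11-leading members, against 1, 0, 1 and 0 toward Pi16. Il1r1, the interleukin-1 receptor, stood at 708 CPM in Ccl11-leading and 338 CPM in Pi16-leading members (-0.97), Il6 at 595 and 326 CPM (-0.91), C3 at 4926 and 3121 CPM (-0.66) and Nfkbia at 645 and 429 CPM (-0.60). The immediate early and heat shock genes, which respond to tissue dissociation among other signals, were also divided, 16 of 40 toward Ccl11 and 3 toward Pi16. The 16 included the early response genes Egr1, Jun and Myc, the chaperone genes Hspa8, Dnaja1 and Bag3, and Rbm3, a cold-inducible RNA-binding protein gene. Of these, Myc, Hspa8, Dnaja1, Bag3 and Rbm3 were picked after their values were seen. A shared direction can be a small shift, with log2 ratios of -0.04 for Hspa8 and -0.15 for Rbm3. Pi16-leading members were the deeper subset in 5 of 6 libraries, with median UMIs of 29344.5 against 27502.5 in p16-DTR replicate 1 and 33976.5 against 31529 in p16-DTR replicate 2. In the controls the medians were 31691 against 30463, 33600.5 against 30862 and 34048 against 31433. In p16-DTR replicate 3 the order was the opposite, 30170 against 35333.5, and the part of depth in these differences was not tested.

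The Wt1-positive members formed a minority with a gene profile of its own. Wt1 encodes a transcription factor best known from mesothelium and kidney. A Wt1 UMI was present in 5 of 172, 9 of 149 and 7 of 111 members in the p16-DTR-labelled libraries, and in 76 of 404, 0 of 155 and 2 of 220 in the controls. Control replicate 1 therefore had 18.8% and every other library at most 6.31%. The count of 0 of 155 in control replicate 2 comes from the smallest control library. In control replicate 1 a positive member had a median of 16.5 Wt1 UMIs and 4 of the 76 had a single UMI. This set was chosen after its values were seen, so its genes are described with no test.

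In control replicate 1, Cxcl13, a B-cell chemokine, stood at 1180 CPM in Wt1-positive and 18.2 CPM in Wt1-negative members, and in the other 5 libraries summed at 594 and 12.6 CPM. Single members held most of the Cxcl13 UMIs of Wt1-positive members elsewhere, 162 of 168 in p16-DTR replicate 2 and 171 of 188 in p16-DTR replicate 3, and the 2 positive members of control replicate 3 had 0. The level outside control replicate 1 therefore rests mainly on 2 cells. The guidance genes Sema3a and Sema3e stood at 143 and 110 CPM against 4.17 and 4.17 CPM, and Sult1e1 at 1179 against 85.8 CPM. The 23 positive members elsewhere had 1081 CPM of Sult1e1 against 79.3 CPM. The library with the highest Sult1e1 level was the one with most of these cells, while control replicate 2, with none, still had 90.3 CPM. Dpp4, the surface peptidase used to mark adventitial progenitors in several tissues, stood at 243 against 67.7 CPM. Mmp3 (26.1 against 831 CPM), Lsamp (14.3 against 429 CPM), Nrg2 (2.57 against 126 CPM) and Tcf21, a transcription factor of alveolar fibroblasts (13.6 against 174 CPM), were lower. Dcn (14678 against 12878 CPM) and Pi16 (959 against 928 CPM), both of the rule, were close in control replicate 1; in the other libraries Pi16 stood at 2226 against 654 CPM. Clec3b, the marker the rule did not use, was lower in the positive members of control replicate 1, at 816 against 1607 CPM, and stood at 1271 against 1531 CPM in the other libraries. Serpinf1, of the rule, stood at 629 against 738 CPM and at 535 against 769 CPM. The mesothelial markers other than Wt1 were at or near 0 in the 76 positive members, with 0 UMIs of Msln, Lrrn4 and Krt19, 5 of Upk3b and 2 of Upk1b. Ccl2 (520 against 69.1 CPM) and Lgr5 (134 against 12.4 CPM) were higher in control replicate 1 but not in the other libraries (21.6 against 34.1 CPM, and 13.9 against 16.7 CPM).

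**Figure D3:**
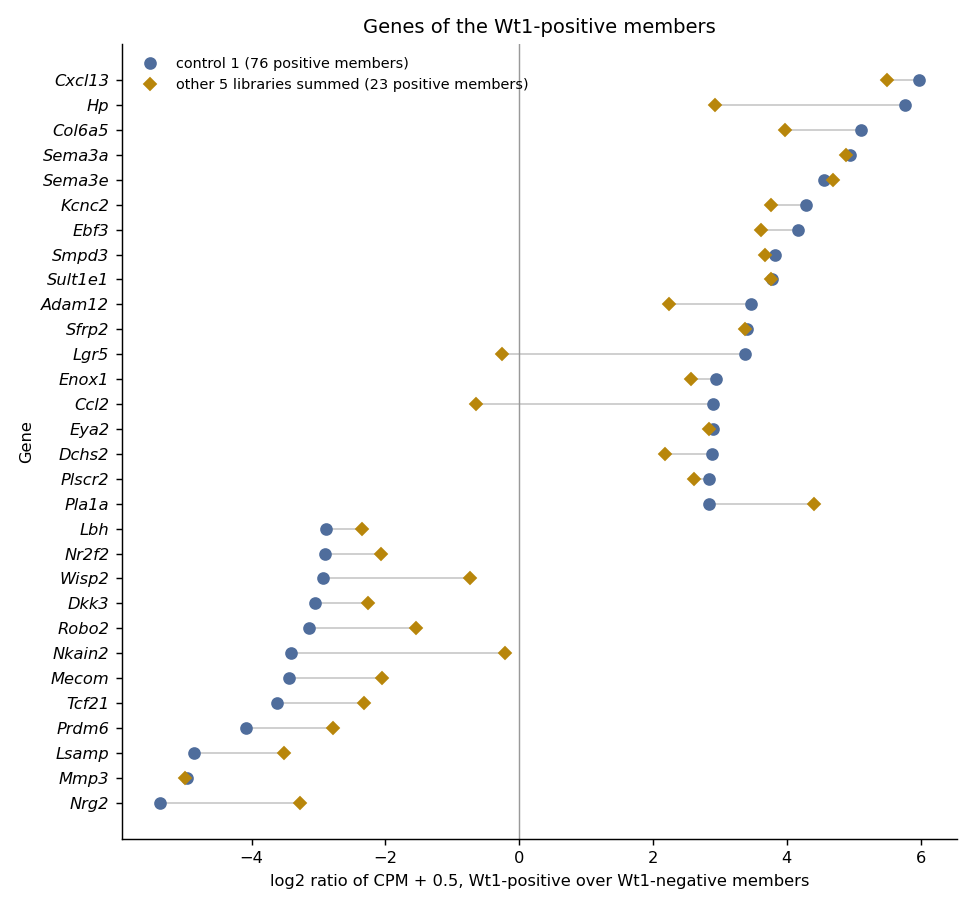
Log2 ratio of CPM + 0.5 in Wt1-positive over Wt1-negative members (x axis) for 30 genes (y axis), in control replicate 1 (circles, 76 positive members) and in the other 5 libraries summed (diamonds, 23 positive members). Cxcl13 stands at 5.98 and 5.50 (the second resting mainly on 2 cells), Mmp3 at -4.97 and -5.00, and Lgr5 and Ccl2 have opposite signs in the 2 sets.

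The first question of the design was whether the members' share differed between the groups. Members made up 1.94%, 1.72% and 1.35% of barcodes without a Ptprc UMI in the p16-DTR-labelled libraries (95% Wilson intervals 1.67 to 2.25, 1.46 to 2.01 and 1.12 to 1.62, counting error only). In the controls they made up 3.55%, 1.82% and 2.20% (3.23 to 3.91, 1.55 to 2.12 and 1.93 to 2.50). Control replicate 1 was highest, and p16-DTR replicate 1 lay above control replicate 2, so the groups overlapped on this denominator. The means were 1.67% ± 0.297 and 2.52% ± 0.911 (SD, n = 3 each; two-sided exact permutation test, p = 0.2, adjusted p = 0.4 over the 4 shares computed). This p cannot fall below 0.1 here, so neither a difference nor its absence is read from it. The difference of -0.854 percentage points was -0.340 without control replicate 1 and -0.707 without the Wt1-positive members. Of all passing barcodes, which include the sorted CD45-positive cells, members made up 1.20%, 1.01% and 0.742% against 2.46%, 1.22% and 1.42%. On that denominator every p16-DTR-labelled library lay below every control, with means of 0.985% and 1.70% and an exact permutation p of 0.1, the smallest this design allows. The closest were p16-DTR replicate 1 at 1.20% and control replicate 2 at 1.22%, and control replicate 1 was highest at 2.46%. This difference was not computed with a library left out. The all-barcode denominator also carries the mix of cells with and without CD45. Barcodes without a Ptprc UMI numbered 8874 of 14326, 8687 of 14724 and 8225 of 14965 passing barcodes in the p16-DTR-labelled libraries. In the controls they numbered 11378 of 16426, 8530 of 12667 and 10009 of 15508. They were a smaller part in every p16-DTR-labelled library than in any control, and the part of this mix was not tested.

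Among Dcn-positive barcodes without Cdh5 and Ptprc, the members' share was 26.4%, 25.0% and 25.1% in the p16-DTR-labelled libraries and 25.9%, 29.0% and 23.8% in the controls. These values were nearly level, at 25.5% ± 0.769 and 26.2% ± 2.61 (SD, n = 3; two-sided exact permutation test, p = 0.8, adjusted p = 0.8). Without control replicate 2 the difference of -0.736 percentage points became 0.636.

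**Figure D4:**
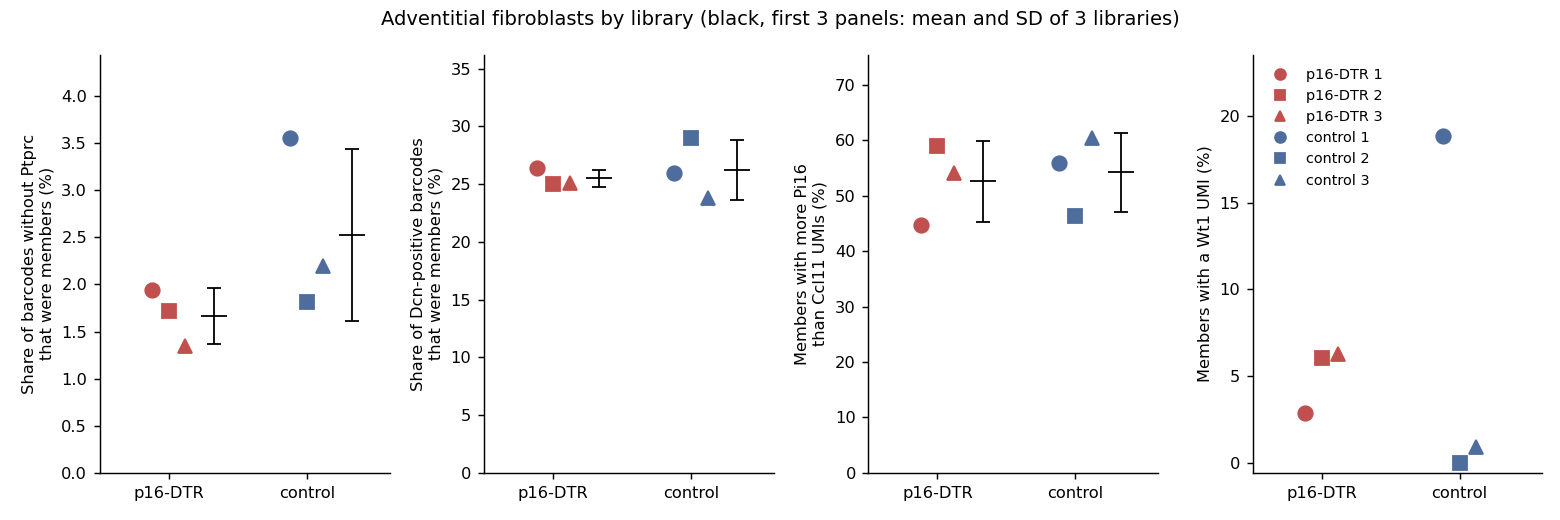
Shares in percent (y axes) for each library of the 2 groups (x axes): members among barcodes without Ptprc, members among Dcn-positive barcodes, Pi16-leading members, and members with a Wt1 UMI; black bars in the first 3 panels give the mean and SD of 3 libraries. Control replicate 1 is the highest point for the first share (3.55%) and for Wt1 (18.8%), and the groups overlap in all 4 panels, although they did not overlap for members among all passing barcodes (not plotted).

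Cdkn2a (chromosome 4, 89274471 to 89294653, minus strand, GRCm38), which encodes p16 and p19ARF, was detected in more members of the p16-DTR-labelled libraries. A UMI was present in 19 of 172, 20 of 149 and 12 of 111 members there and in 6 of 404, 2 of 155 and 1 of 220 control members. With each cell thinned to 5000 UMIs, 4.76%, 2.78% and 1.85% of members against 0.254%, 0% and 0.463% had a UMI. These were 8 of 168, 4 of 144 and 2 of 108 members against 1 of 394, 0 of 153 and 1 of 216, from a single random draw. The groups did not overlap, at 3.13% ± 1.49 and 0.239% ± 0.232 (SD, n = 3), and the exact permutation p was 0.1, the smallest this design allows (adjusted p = 0.4). Unthinned, the means were 11.8% and 1.08%. Neutrophil barcodes, used as a class in which free RNA would show, had 1.30%, 1.51% and 2.33% against 0% in each control library after the same thinning. The 0 of 1534 control cells, pooled over 3 mice, allow up to 0.196% by counting error only. Unthinned, the control neutrophils were not all at 0, with 0%, 0.398% and 0.446% by library. The median depth was 9316 to 12084 UMIs in neutrophils and 28578.5 to 33918 UMIs in members. In p16-DTR replicate 2 the thinned shares rested on 4 of 144 members and 9 of 595 neutrophils. In p16-DTR replicate 3 the members' thinned share, 1.85%, lay below the neutrophils' 2.33%, so no expression is read from it at that depth. Unthinned, the 2 shares were 10.8% and 7.38%, at the unequal depths given, and the part of free RNA was not tested.

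As a summed level in members, Cdkn2a stood at 7.26, 6.39 and 5.27 CPM against 2.07, 0.426 and 1.86 CPM. The log2 fold change was 1.98 ± 0.41 (SE) and the edgeR adjusted p 0.261, so it was not called; without the filter on low counts the adjusted p was 0.0439. All 13 UMIs of control replicate 3 lay in 1 member, and the single cell with most UMIs in control replicate 1 held 10 of 25. Cdkn1a, the p21 gene, stood at 192, 164 and 189 CPM against 200, 240 and 203 CPM, with a UMI in 69.2% ± 6.72 and 70.1% ± 5.11 of members (SD, n = 3), and was not called either (log2 fold change -0.24 ± 0.11, edgeR adjusted p = 0.589). Hbegf, the mouse gene for the growth factor that serves as the toxin receptor in other species, stood at 0.639 to 5.76 CPM (edgeR adjusted p = 0.988).

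The number of genes called between the groups over the whole transcriptome depended on the test. Of 12331 genes tested on the sums per library, 1 was called (0.00811%) at an edgeR adjusted p under 0.05, and it was lower in the p16-DTR-labelled libraries. DESeq2 called 63 genes, and edgeR without the filter on low counts 60. The edgeR count was 0 with the replicate number as a block, with a stricter gate (at least 10 UMIs of Dcn, 4 of Serpinf1 and 4 of Pi16 and Ccl11 together) and without the Wt1-positive members. At an unadjusted p under 0.05 there were 1042 genes (8.45%), 470 higher (3.81%) and 572 lower (4.64%). The groups did not overlap in 1759 genes (14.3%), 878 higher (7.12%) and 881 lower (7.14%). The called gene was Gm37245, a long noncoding RNA at chromosome 3, 93306468 to 93465359, on the minus strand (GRCm38), which stood at 1.71, 1.06 and 0.277 CPM against 14.5, 11.3 and 14.2 CPM. Its log2 fold change was -3.62 ± 0.36 (SE; edgeR adjusted p = 0.0448). Its UMIs lay in few cells: 18, 5 and 5 control members had one, and a single member held 67 of 175, 41 of 53 and 72 of 99 UMIs in control replicates 1, 2 and 3. The p16-DTR-labelled libraries held 8, 5 and 1 UMIs in 3, 5 and 1 members. Of the 175 UMIs in control replicate 1, 162 lay in Wt1-positive members, and without those members the gene stood at 1.39 CPM in that library and was too low to be tested. The call was lost when any 1 library was left out (edgeR adjusted p = 0.0644 to 0.383), with log2 fold changes of -4.19 to -3.26. DESeq2 gave the gene no adjusted p. Tchh, a hair follicle protein gene, lies inside this locus on the plus strand and had 199 UMIs in members; whether the counting used strand is not given in the sources used here, so reads of the 2 genes may not be told apart.

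The genes next in order were not called, and their values are given as such. Among the 8 with the smallest p on the higher side, Pdpk1, a kinase that activates AKT, stood at 91.2, 93.7 and 96.0 CPM against 65.4, 67.3 and 61.1 CPM (log2 fold change 0.54 ± 0.08, edgeR adjusted p = 0.258). Socs2, an inhibitor of growth hormone signalling, stood at 79.4, 67.1 and 73.8 CPM against 45.3, 38.1 and 54.5 CPM (0.67 ± 0.13, edgeR adjusted p = 0.261). In both, every p16-DTR-labelled library lay above every control. The same held for Dnajb11, a chaperone of the endoplasmic reticulum (0.54), Cmklr1, the chemerin receptor (0.58), Gda, a guanine deaminase (0.51), Pld1, a phospholipase (0.40), Xkr4 (0.66) and Tmem45a (0.53). On the lower side, Tmem88 stood at 25.4, 21.1 and 24.4 CPM against 44.8, 40.4 and 46.2 CPM (-0.90 ± 0.11, edgeR adjusted p = 0.137). Kdm6b, a histone H3K27 demethylase, stood at 186, 184 and 212 CPM against 318, 280 and 293 CPM (-0.62 ± 0.09, edgeR adjusted p = 0.258). Again no library of one group lay within the range of the other. All these genes were picked by the p of this same comparison, so their lack of overlap is a description. Of all genes tested, 7.12% were higher and 7.14% lower without overlap. Nr4a1, an immediate early nuclear receptor (-0.48), Bcor, a transcriptional corepressor (-0.69), Myo1e, an unconventional myosin (-0.97), Plekhg2 (-0.72) and Ell2, an elongation factor (-0.50), completed this side. DESeq2 called all 15 of these genes, and edgeR without the filter on low counts called 14, but edgeR with the filter called 0 under every other setting tried.

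**Figure D5:**
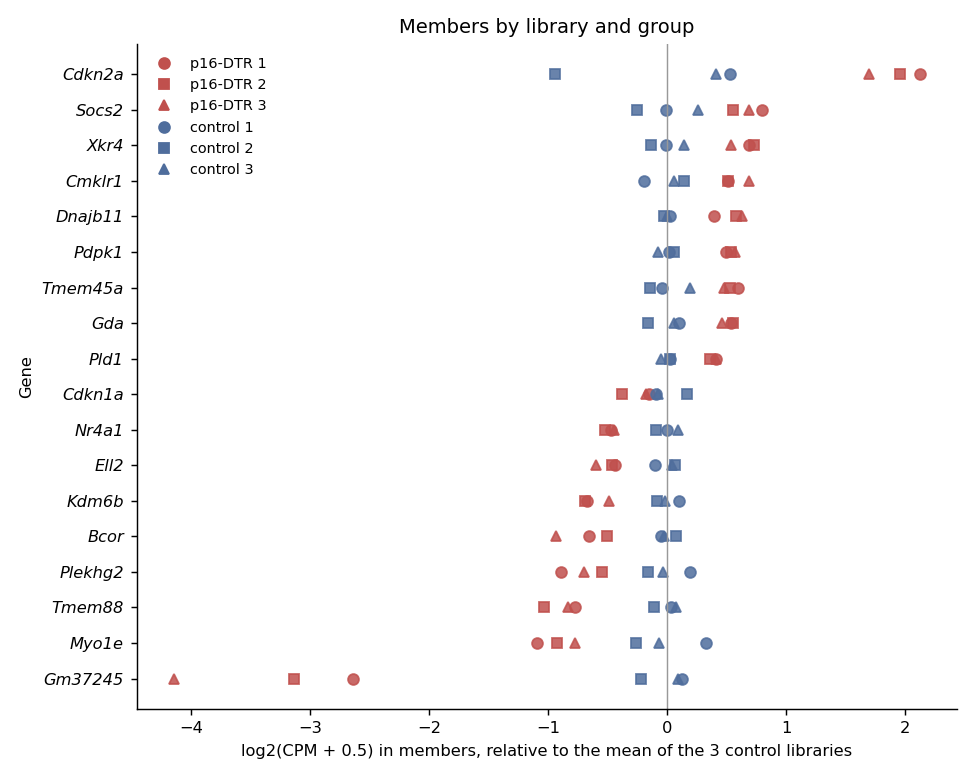
Members' log2(CPM + 0.5) by library relative to the mean of the 3 control libraries (x axis) for 18 genes (y axis), red for the p16-DTR-labelled libraries and blue for controls. Gm37245 alone was called. In Gm37245, Cdkn2a and the 15 genes with the smallest p that were not called, the red and blue points do not overlap. The 15 were picked by the p of this same comparison, and 14.3% of all genes tested had no overlap either.

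With the filter on low counts, all members and all 6 libraries, edgeR called no gene of the 16 gene lists, against 0.00811% of all genes tested. Other settings called some, and not all of those calls are given here. DESeq2 called 1 gene of NF-kB feedback and Nr4a1 of the immediate early list. Without the filter, edgeR called Cdkn2a of the senescence list (edgeR adjusted p = 0.0439). Of 31 identity genes, 4 genes of the rule left out, 15 were higher and 16 lower, with a median log2 fold change of -0.02 against 0.00064 over all genes tested. None of the 31 had an unadjusted p under 0.05. Of 24 collagens, 15 were higher and 9 lower, with a median of 0.07. An unadjusted p under 0.05 was found for 3 higher and 3 lower, and the groups did not overlap in 4 higher and 3 lower of the 24, against 7.12% and 7.14% of all genes tested. Col14a1 stood at 993, 1005 and 860 CPM against 996, 1172 and 1087 CPM (-0.19, edgeR adjusted p = 0.645). Col3a1 stood at 1897, 2078 and 1918 CPM against 1572, 1615 and 1581 CPM (0.31 ± 0.08, edgeR adjusted p = 0.378) and Col1a1 at 1064, 1329 and 1225 CPM against 919, 1056 and 959 CPM (0.30, edgeR adjusted p = 0.505). Of 34 chemokine, cytokine and receptor genes, Ccl11 left out, 15 were higher and 19 lower, with a median of -0.11. An unadjusted p under 0.05 was found for 0 higher and 3 lower, and the groups did not overlap in 0 higher and 5 lower. In this list Cxcl1, a neutrophil chemokine, stood at 313, 244 and 457 CPM against 893, 635 and 473 CPM (-0.98 ± 0.27, edgeR adjusted p = 0.379), and Il1r1 at 562, 506 and 512 CPM against 514, 432 and 508 CPM (0.12, edgeR adjusted p = 0.775). The 17 genes of NF-kB feedback had a median of -0.22, with 16 lower and 1 higher, beside 6146 lower of the 12331 genes tested. Of the 17, 7 were lower at an unadjusted p under 0.05 (4.64% of all genes) and 9 were lower without overlap (7.14% of all genes). In alveolar fibroblasts of the same mice 14 of 18 were lower, with a median of -0.09. In members, Birc3 of this list stood at 417, 363 and 454 against 475, 509 and 514 CPM. Nfkbia stood at 557, 378 and 498 against 598, 569 and 559 CPM, also in members. The 46 immediate early and heat shock genes held 8 higher and 14 lower at an unadjusted p under 0.05, 47.8% of the list against 8.45% of all genes; Egr1 stood at 3235, 2770 and 3341 CPM against 4143, 3882 and 4005 CPM (-0.36, edgeR adjusted p = 0.407) and Jun at 2175, 1976 and 2420 CPM against 1769, 1925 and 2358 CPM (0.12). Genes of this list also respond to tissue dissociation, whose part was not tested.

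Beside alveolar fibroblasts of the same 6 mice, no gene had a called difference of the group effect with the filter on low counts and all 6 libraries. The alveolar class alone had 150 called genes of 16354 (0.917%), from 14541 cells against 1211 members. In the test of the difference itself, on 16336 genes, 0 were called by edgeR (0%) and 1204 had an unadjusted p under 0.05 (7.37%). Without the filter on low counts 44 were called, without p16-DTR replicate 1 there were 5 and without p16-DTR replicate 2 there was 1. Gm37245 had a log2 fold change of -3.62 in members and -0.56 in alveolar fibroblasts, with an edgeR adjusted p of 0.330 for the difference. For Cdkn2a the values were 1.98 and 5.89, with an edgeR adjusted p of 0.295. Pdpk1 stood at 0.54 in members and 0.53 in alveolar fibroblasts, Socs2 at 0.67 and 0.37, and Cxcl1 at -0.98 and -1.82. The 2 cell types come from the same lungs and are not independent of each other.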

How the data were processed

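Single-cell RNA sequencing counts of 6 lungs, 3 a group, were used as deposited. The authors deposited 1 matrix of UMI counts per library, made with Cell Ranger 8.0.1 on genome build mm10 per the submitters' processing notes; the annotation release and the cell-calling settings are not given in the sources used here. Members were selected by the rule stated at the start, and their counts summed per library; 1 library is 1 mouse, and mice are the replicates. The members and gene lists were chosen with earlier results of these data known.

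Sums were tested with edgeR 4.0.16 (quasi-likelihood test, filterByExpr, TMM factors of 0.990 to 1.01), with Benjamini-Hochberg adjustment over all genes and a threshold of 0.05; the procedure was tested on simulated data. The difference between cell types was fitted over 12 sums with the mouse as a term. CPM are UMIs per 1000000 UMIs, and log2 ratios add 0.5 CPM. Shares were compared with exact permutation tests over libraries, with mice as the replicates. With 3 mice a group that p cannot fall below 0.1. For Cdkn2a shares, each cell was thinned to 5000 UMIs and 28 shallower members were left out. No doublet caller was run; barcodes with Cdh5, Ptprc or Npnt UMIs were outside the rule, and members with other markers or the most UMIs were left out as alternatives. DESeq2 1.42.0 was an alternative test. Positions are from GENCODE M21 on GRCm38, the build of mm10; 30934 of 31054 features had an identifier in it. Of 519 listed genes 518 were found, 3 of them under older symbols.

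Genes named are those called, filled to 8 in each direction by the smallest p at a mean of at least 20 CPM, the 4 highest in each list, the 12 with the highest ratio to other fibroblasts, and the 10 with the highest ratio in each direction between Pi16-leading and Ccl11-leading members; others are said to be picked after their values were seen, and some genes the rule names are not reported here. The predicted gene Gm37245 is named because it was called.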

Additional observations from a re-analysis of the deposited data

Results flagged for a closer look

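The tdTomato entry of the count matrices lies outside the comparisons, having too few UMIs for the test. It had 5 UMIs in 5 members of the libraries labelled p16-DTR (3, 0 and 2 by replicate) and 0 UMIs in 779 control members. By library, 0 of 404, 155 and 220 control members allowed shares up to 0.942%, 2.42% and 1.72% (95% Wilson limits, counting error only). The labels name no tdTomato allele.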

How the results depend on the processing

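The count of 1 called gene depended on the processing. It was 63 with DESeq2, 60 without a filter on low counts and 2 with equal numbers of members per library. Gm37245 was among the 60 and the 2 but not among the 63, since DESeq2 gave it no adjusted p. It was 0 with the replicate block, with the stricter gate, without members with other markers, without the 5% of members with most UMIs and without the Wt1-positive members (added after seeing the data), and 0 to 1 when each library was left out in turn; the 1, without control replicate 2, was Gm15726, which was higher. RLE factors, library size alone, the 5% mitochondrial limit and the looser gate gave 1, Gm37245. Replicate numbers were not taken as pairs. Same-numbered libraries correlated at -0.318, -0.202 and 0.00678 in their deviations from the group means, and differently numbered ones at -0.196 to 0.373. Deviations from a group mean sum to 0 within the group, so these values cannot show whether mice were paired. For the difference from alveolar fibroblasts, 44 genes were called without the filter and 0 to 5 with a library left out; the other settings gave 0. The difference in share of Dcn-positive barcodes ranged from -1.96 to 0.636 percentage points with a library left out, and that in the Pi16-leading share from -5.51 to 2.38, with 0.081 without members with other markers. The share of CD45-negative barcodes (-1.21 to -0.340) and the thinned Cdkn2a share (2.08 to 3.53) kept their direction with each library left out. Of all passing barcodes the members' difference was -0.716 percentage points (exact permutation p = 0.1), with no overlap of the groups. That denominator also carries the mix of cells with and without CD45. Of 81 named genes, 55 kept the sign of the group difference under every setting that gave an adjusted p. The 20 ratios between Pi16-leading and Ccl11-leading members moved by less than their SD over libraries under both alternatives. The cause of these changes was not tested.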

Other observations

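Genes of protein folding in the endoplasmic reticulum were collected after their values were seen, so their counts are a description and nothing is read from them. All 24 were higher in members of the libraries labelled p16-DTR, with a median log2 fold change of 0.39 against 0.00064 over all genes tested, and the groups did not overlap in 21, against 7.12% of all genes tested that were higher without overlap. The smallest edgeR adjusted p among them was 0.258 with the filter on low counts. DESeq2 called 10 of the 24, and edgeR without the filter called 5. Hspa5, the chaperone BiP, stood at 1699, 2773 and 1978 CPM against 1522, 1371 and 1368 CPM. Manf, a secreted stress-induced factor, stood at 339, 473 and 302 CPM against 244, 234 and 207 CPM, and Hyou1, a chaperone, at 57.4, 90.3 and 81.9 CPM against 45.1, 46.6 and 40.1 CPM. Creld2 stood at 65.1, 114 and 103 CPM against 56.7, 63.9 and 39.1 CPM. In alveolar fibroblasts of the same mice 23 of 24 were higher with a median of 0.37, and over all passing barcodes 21 of 24 with a median of 0.20.

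Of 25 glucocorticoid-induced genes, 11 were higher and 14 lower, with a median log2 fold change of -0.01. Zbtb16, a transcription factor of this list, stood at 914, 666 and 887 CPM in members of the libraries labelled p16-DTR and at 238, 649 and 575 CPM in the controls (edgeR adjusted p = 0.569), with control replicate 1 lowest. Ebf1, the transcription factor described above, is compared between groups here after its values were seen. It stood at 884, 1024 and 906 CPM against 1474, 1026 and 1406 CPM. Ebf1 was not called by edgeR with the filter on low counts, and 14.3% of all genes tested had no overlap of the groups.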
